A study of Homo sapiens with 8 samples.

Results

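CPR40 is a cisplatin-resistant derivative of A2780, a human ovarian carcinoma line. It was studied on 2 of the 8 spotted cDNA arrays of the series, chosen as the arrays whose titles name this derivative. Each array compared RNA of 1 resistant derivative, labelled with the red dye Cy5, with RNA of the cisplatin-sensitive parental line CPR00, labelled with the green dye Cy3. The other 6 arrays held the derivatives CPR20, CPR55 and CPR70, with 2 arrays each. All lines were grown in ordinary RPMI medium with serum, and the labels name no drug in the medium at harvest. They do not say what the number in a derivative's name stands for, whether a derivative is 1 clone, or whether its 2 arrays came from separate cultures, so the errors below may measure technical spread alone. The parental RNA is the second channel of every array, its own spread is left out of each ratio, and the dyes were never exchanged. A dye effect of a gene therefore adds to CPR40 over parental and cancels between derivatives.

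Cisplatin enters cells in part through copper transporters and binds DNA, where its crosslinks are removed by excision and crosslink repair and sensed by mismatch repair and p53. Glutathione and metallothioneins can bind the drug before it reaches DNA, and copper-transporting ATPases can carry it out. Resistant lines made by repeated exposure are known to differ from their parent in many genes besides these.

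Of 14427 clone spots, 14248 were found on CPR40 replicate 1 and 12759 on replicate 2. The replicate 2 array stood apart: 15.1% of all its spots were not found, against 0.7% to 6.4% on the other 7 arrays. Its median intensities were 213 in red and 112.4 in green, and 24.5% and 24.7% of its clones lay above background. On replicate 1, the corresponding shares were 44% and 34.7%. Background was set for each channel of each array at the median of the empty spots plus 2.6 scaled median absolute deviations. The log2 ratios of both CPR40 arrays correlated at 0.32 over 11663 probes, and at 0.63 over the 1315 brightest. Both figures are across probes, which are not independent replicates and share the parental RNA.

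The expression of markers of the labelled cell type was low in this channel. Of 8 epithelial markers measured, 7 were below background in the CPR40 channel on both arrays, EPCAM and CDH1 among them. KRT18, a keratin of simple epithelia, was above background on both. All 5 ovarian carcinoma markers measured (PAX8, WT1, MSLN, FOLR1 and WFDC2) were below background on both CPR40 arrays, in either channel. So were 6 of 7 leukocyte, 4 of 5 endothelial and 6 of 8 fibroblast markers in the CPR40 channel.

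**Figure D1:**
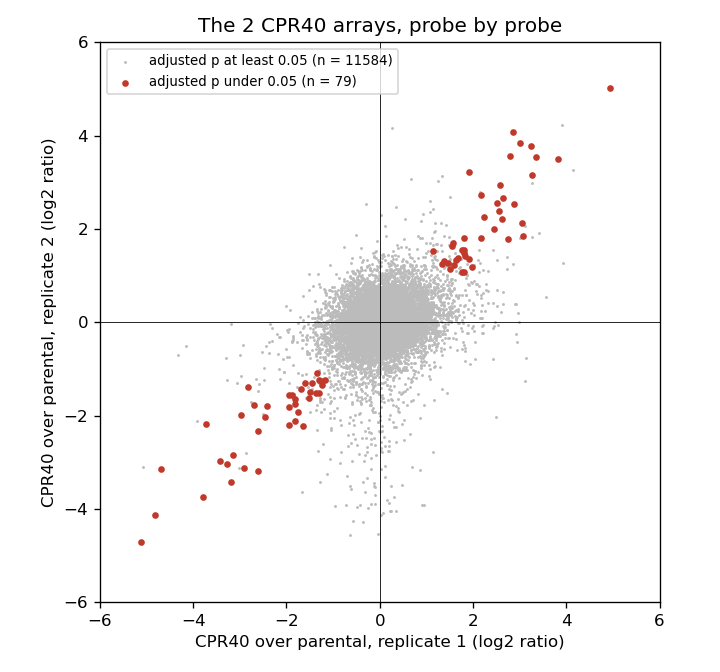
Log2 ratio of CPR40 over the parental line on replicate 1 (horizontal axis) and replicate 2 (vertical axis), 1 point per probe with a value on both arrays. The 79 red points are probes with an adjusted p under 0.05, all of the same sign on both arrays, and the 11584 grey points are the others. A tail of grey points is low on replicate 2 and near 0 on replicate 1.

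The first comparison asked which genes differed between CPR40 and the sensitive parent. Transcripts of the membrane-coat protein CAVIN2, the smooth-muscle actin ACTA2, the small heat shock protein CRYAB and the proteases MMP10 and ADAMTS5 rose. Transcripts of the matrix proteins PCOLCE and HAPLN1, the calcium-binding protein S100A11, the p53 targets CDKN1A and PHLDA3, gamma-synuclein (SNCG) and the transcription factor TWIST1 fell. In limma's moderated test with Benjamini-Hochberg adjustment, 80 of 13186 probes passed an adjusted p of 0.05, which is 0.607% of all probes. Of these, 42 were higher (0.319%) and 38 lower (0.288%). At an unadjusted p under 0.05 there were 1594 probes.

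Among the 80 probes, 22 rose and 18 fell by at least 2 on the log2 scale, and 9 rose and 8 fell by at least 3. The probes stood for 66 genes, 34 higher and 32 lower, or 0.671% of the 9837 genes tested, with 12 clones that carry no gene name and 2 that are second clones of a gene. For 32 of the 66 genes the dimmer channel was below background on both arrays, so that their fold is a lower bound. Another 33 were measured in both channels on at least 1 array. SIRT6, with a value on replicate 1 only, was below background in both channels, and no change is reported for it. The genes just inside the threshold were SH3GLB1, MAP2K3 and FLNC, with adjusted p-values of 0.0485, 0.0488 and 0.0495. Those just outside were SEPHS2, POP3 and BTG1, each with an adjusted p of 0.052.

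Arrays with the same replicate number deviated together, and a fit with that number as a block called 205 probes, 1.55% of those tested, with 79 of the 80 among them. Without CPR40 replicate 2 the count was 29, of which 18 were among the 80, and without CPR40 replicate 1 it was 88, 15 higher and 73 lower, of which 24 were among the 79 tested there. The count was 45 without CPR20 replicate 1, 46 without CPR20 replicate 2, and 45 without either CPR70 array.

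In what follows, 2 values of a gene are its log2 ratios of CPR40 over parental on replicates 1 and 2, in that order, 1 value is their mean, and ± is the standard error of the fit. Each count of called list members without the block stands beside 66 called of all 9837 genes tested (0.671%), 34 higher and 32 lower. CAVIN2 is a coat protein of caveolae. Its log2 ratio was 4.93 on replicate 1 and 5.03 on replicate 2, with a mean of 4.98 ± 0.33 (SE of the fit, n = 2; adjusted p = 0.000955, limma). The deposited intensities were 10658.5 and 4148.9 in the CPR40 channel against 246.5 and 50.5 in the parental channel, where the spot was not well above background, so the rise was at least 21.7-fold. CAVIN2 was the single called gene of 6 measured caveolar genes. CAV1, the main caveolar coat protein, read 0.21 (adjusted p = 0.88), and CAVIN1 read 0.63 (adjusted p = 0.497).

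ACTA2, alpha smooth-muscle actin, read 2.86 and 4.07, a mean rise of 3.47 ± 0.41 (adjusted p = 0.0151). The parental channel of ACTA2 was below background on replicate 2, the array with the larger value. TMSB10, thymosin beta 10, which binds actin monomers, read 2.80 and 3.56, a mean of 3.18 ± 0.25 (adjusted p = 0.00408) or at least 8.33-fold. Both arrays were well above 0 for either gene. These were the 2 called members of 28 measured actins, tubulins and partners, whose median was 0.17 on the log2 scale against -0.013 for all genes. The median of the list was 0.63 without CPR40 replicate 1 and 0.31 without CPR40 replicate 2. With the replicate block 5 of the 28 passed, all higher: TMSB4X, ACTG2 and ACTC1 joined, at 1.65, 1.16 and 0.99 (block-adjusted p = 0.0251, 0.0384 and 0.0419). Of all 9837 genes, 169 passed with the block, 85 of them higher. Clones of actin and thymosin genes can bind transcripts of related genes, so these may not be separate rises. The cytoplasmic actin ACTB read -0.15.

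CRYAB, a small heat shock protein that holds unfolding proteins in solution, read 3.36 and 3.54, a mean rise of 3.45 ± 0.47 (adjusted p = 0.0263). Its parental channel was below background on both arrays, so the rise was at least 5.12-fold. It was the only called member of 26 heat shock and folding chaperones, whose median was 0.20. Without CPR40 replicate 2 the chaperone median was 0.05.

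Among proteases and inhibitors of the matrix, 34 genes were measured, with 1 higher and 1 lower. MMP10, stromelysin 2, read 1.92 and 3.21, a rise of at least 3.08-fold (adjusted p = 0.0208). A2M, alpha-2-macroglobulin, a broad protease trap, read -2.83 and -1.38, a fall of at least 2.96-fold (adjusted p = 0.0482). The fall of A2M no longer passed in 14 of 21 alternatives, with means of -2.83 to -1.12 and adjusted p-values of up to 0.416. Its second, dimmer clone read -0.14. ADAMTS5, an aggrecan-cleaving protease, was not on that list but had the twelfth largest rise: 2.57 and 2.39, a mean of 2.48 ± 0.22 (adjusted p = 0.00408) or at least 2.29-fold. TIMP1, an inhibitor of matrix metalloproteases, read 2.15 and 2.80 (adjusted p = 0.0783), and passed with the replicate block (adjusted p = 0.0197).

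Genes of the matrix were among the falls. PCOLCE, which speeds the trimming of procollagen, read -5.12 and -4.72, a mean of -4.92 ± 0.23 (adjusted p = 0.000332). Its intensity was 388 and 268.2 in the CPR40 channel against 12616.5 and 6559.1 in the parental channel. The background levels of the CPR40 channel were 327.7 and 311.7, so the size of the fall rests on values near background. HAPLN1, the link protein that ties hyaluronan to proteoglycans, read -4.81 and -4.14, a mean of -4.48 ± 0.28 (adjusted p = 0.000955). Its second clone, dimmer, read -1.47 (adjusted p = 0.219), the same sign at a smaller size. Both genes were low on each CPR40 array and passed the threshold in all alternatives run.

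PCOLCE and HAPLN1 were the 2 called of 56 collagens and matrix proteins, both lower, and the median of the list was -0.18. With the replicate block 5 of the 56 passed, all lower, with COL3A1, VCAN and CCN2 added. Of all 9837 genes, 84 passed as lower with the block. COL3A1, a fibrillar collagen, read -2.59 and -1.33, and VCAN, the proteoglycan versican, read -1.94 and -1.29. CCN2, connective tissue growth factor, read -3.19 on replicate 1 and -0.05 on replicate 2. Of 8 fibroblast markers, which include such collagens, 0 were called by limma, 5 had an unadjusted p under 0.05 (1 higher, 4 lower; 62.5%, against 12.5% of all genes) and the median was -0.60. LUM and COL1A2 read -4.16 and -2.94 on replicate 1 and -0.51 and -0.49 on replicate 2, and the part of these markers in the falls was not tested.

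CDKN1A, the p21 inhibitor of the cell cycle, and PHLDA3, an inhibitor of AKT signalling, are both induced by p53, and both fell. CDKN1A read -3.28 and -3.04 (mean -3.16 ± 0.41, adjusted p = 0.0231), a fall of at least 3.53-fold, while a second clone, below background in both channels and with a value on 1 array, read 0.13. PHLDA3 read -2.61 and -3.19 (mean -2.90 ± 0.24, adjusted p = 0.00281), a fall of at least 4.35-fold. These were 2 of 23 measured p53 targets, none of which was called higher, and the list's median was -0.30. Of all 9837 genes, 32 were called lower. At an unadjusted p under 0.05 in limma, 5 of the p53 targets were lower and 1 higher (26.1%, against 12.5% of all genes).

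Other p53 targets did not pass. SESN2, a stress-induced inhibitor of mTOR, read -1.23 and -1.24 (adjusted p = 0.0988) and passed with the block (adjusted p = 0.0419). PPM1D, a phosphatase that turns the p53 response off, read -0.99 and -2.06 (adjusted p = 0.0728). BAX read -1.02 and -0.51 (adjusted p = 0.708), and MDM2 read -0.57 and -0.36 (adjusted p = 0.745).

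Genes of the unfolded protein and integrated stress response had a median of -0.61 on the log2 scale over 22 genes, against -0.013 for all genes. The median was -0.13 in CPR20, -0.43 in CPR55 and -0.60 in CPR70, so a low median was not particular to CPR40. At an unadjusted p under 0.05 in limma, 10 of the 22 were lower and 0 higher (45.5%, against 12.5% of all genes). ATF5, a stress-induced transcription factor, fell by 1.94 ± 0.24 on the log2 scale (-1.64 and -2.23; adjusted p = 0.0203). WARS1, the tryptophanyl-tRNA synthetase, fell by 1.89 ± 0.20 (-1.96 and -1.83; adjusted p = 0.00905). WARS1 is also interferon-induced and counted among 39 interferon-stimulated genes, where it was the single called gene. No other member passed without the block. ASNS, asparagine synthetase, read -2.37 on replicate 1 and -0.43 on replicate 2, and ATF4, which drives this response, read -0.55 and -0.36. The table's P8, titled p8 protein, a stress-induced nuclear protein, fell by 2.25 ± 0.22 (adjusted p = 0.00607), at least 4.14-fold; its symbol matched more than 1 current gene, so it was not placed in a list.

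Of 17 mesenchymal genes, ACTA2 rose and TWIST1, a transcription factor of mesenchymal cells, fell. TWIST1 read -2.70 and -1.77 (mean -2.24 ± 0.31, adjusted p = 0.0266), or at least 3.19-fold lower. Its second clone, below background in both channels, read 0.11. No epithelial gene of 23 was called, and their median was 0.05. With the block KRT18 passed (adjusted p = 0.0365), at 0.03 on replicate 1 and 2.29 on replicate 2.

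S100A11, a calcium-binding S100 protein, was the single called gene of 19 annexins and S100 proteins. It read -3.79 and -3.74, a mean of -3.76 ± 0.26 (adjusted p = 0.00119) or at least 8.24-fold lower, and a second clone below background in both channels read -0.36. SNCG, gamma-synuclein, a small protein abundant in neurons and in some carcinomas, read -2.92 and -3.12, a mean of -3.02 ± 0.19 (adjusted p = 0.000955) or at least 2.91-fold lower. CD99, a cell-surface glycoprotein, read -2.61 and -2.34 (adjusted p = 0.0392), while its dimmer second clone read 0.23.

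A nuclear receptor and an AT-hook protein were also among the 12 largest falls of called genes. Some larger falls were not called by limma. TCIM read -5.08 and -3.11 (adjusted p = 0.103, block-adjusted p = 0.0294), with its CPR40 channel below background on both arrays. NR1I3, the nuclear receptor CAR, which controls drug-metabolising enzymes in the liver, read -4.69 and -3.15 (mean -3.92 ± 0.55, adjusted p = 0.0429), at least 2.99-fold lower. AKNA read -2.99 and -1.98 (adjusted p = 0.0359). FLJ20128, a predicted protein of no stated function, read -3.19 and -3.42 (adjusted p = 0.000955), with both channels above background on both arrays.

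ATP11B, a P4-type ATPase that flips phospholipids and has been linked to cisplatin export in ovarian carcinoma cells, read 3.01 and 3.84, a mean of 3.43 ± 0.52 (adjusted p = 0.0399). Its parental channel was below background on replicate 2, the array with the larger value. Its second clone read 2.64 and 2.67, with a mean of 2.66 ± 0.24 (adjusted p = 0.00408). ABCA3, a lipid transporter of lamellar bodies, read 3.05 and 2.13, a mean of 2.59 ± 0.25 (adjusted p = 0.00559) or at least 4.88-fold. CHMP4A, a subunit of the ESCRT-III membrane-cutting complex, read 2.59 and 2.94 (adjusted p = 0.00562), at least 4.60-fold. The predicted proteins MGC3032, MGC10905 and MGC2668 rose by 3.66 ± 0.24, 2.71 ± 0.22 and 2.53 ± 0.33 on the log2 scale, the first at least 11.5-fold and the second at least 4.10-fold.

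**Figure D2:**
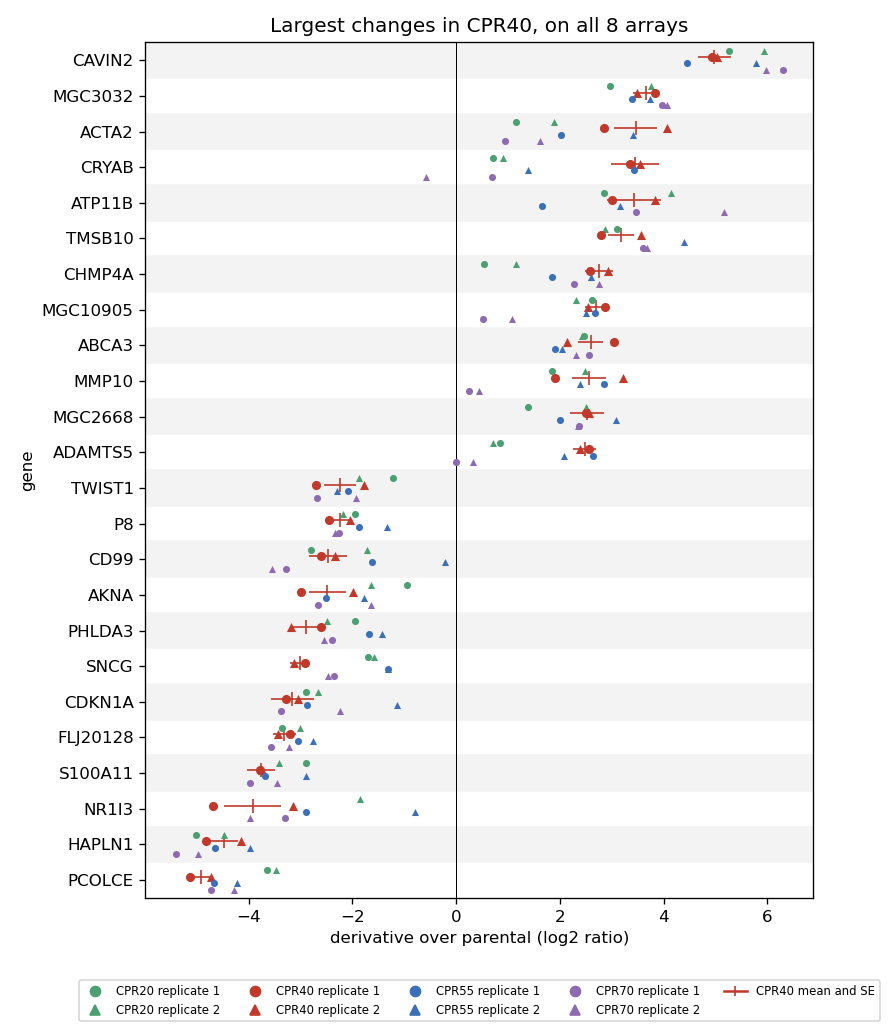
Log2 ratio of each derivative over the parental line (horizontal axis) on all 8 arrays for the called genes that rose most and fell most in CPR40. There are 12 in each direction, all with the same sign on both CPR40 arrays. Circles are replicate 1 and triangles replicate 2, and the bar is the CPR40 mean with its SE. CRYAB, ADAMTS5 and ACTA2 in CPR40 lie beside CPR55 and above CPR20 and CPR70, and the derivative channel of SNCG was below background on all 8 arrays.

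Of 22 measured platinum carriers and resistance genes, ATP11B was the only one called. The median of the list was 0.18, and it was 0.02 without CPR40 replicate 1 and 0.00 without CPR40 replicate 2. Among importers, the copper transporter SLC31A1 read -0.49 and -0.97 (mean -0.73, adjusted p = 0.324), and SLC31A2 read 0.19. The organic cation carriers SLC22A2 and SLC22A3 were below background in both channels. The copper-exporting ATPases ATP7A and ATP7B read -0.53 (adjusted p = 0.554) and -0.11 (adjusted p = 0.91). None of these differed from 0 beyond the threshold.

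Among efflux pumps, ABCC1, the glutathione-conjugate exporter MRP1, read 0.87 and 0.40 (mean 0.63, adjusted p = 0.277), and ABCB1, the multidrug pump P-glycoprotein, read 0.56 and 0.31 (mean 0.44, adjusted p = 0.697). ABCC4 read 0.26, and ABCC2, ABCC3 and ABCG2 were below background in both channels. Of the detoxifying genes, GSTP1, a glutathione transferase, read 0.71 and 0.57 (mean 0.64 ± 0.21, adjusted p = 0.271). MT2A, a metallothionein, read 1.23 on replicate 1 and -0.25 on replicate 2. The copper chaperones ATOX1 and COX17 read 0.27 and 0.20.

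ERCC1, a subunit of the excision-repair nuclease, read 0.00 and -0.52 (mean -0.26, adjusted p = 0.85), and TOP2A, a topoisomerase, read -0.68 and 0.53. Of 41 genes of excision, crosslink and recombination repair, UNG, the uracil-DNA glycosylase, rose by 1.33 ± 0.20 (1.13 and 1.52; adjusted p = 0.0391), at least 2.18-fold. The rise of UNG no longer passed in 15 of 21 alternatives, with adjusted p-values of up to 0.376. Its second clone, below background in both channels, read 0.16. Of 9 mismatch-repair genes and 31 glutathione and redox enzymes, 0 were called, with medians of -0.20 and 0.05. All 6 metallothioneins read above 0, at 0.29 to 1.25 (0 called), with a median of 0.99 on replicate 1 and 0.25 on replicate 2. Their parental channel was below background on both arrays. The CPR40 channel was above background on both arrays for 0 of the 6, and below it on both for 2, so these ratios rest on dim spots.

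A few members of other lists were called. PTTG1, securin, which keeps sister chromatids from separating early, rose by 1.42 ± 0.20 (1.60 and 1.24; adjusted p = 0.035), 1 of 2 called in 44 cell cycle genes beside CDKN1A. The rise of PTTG1 no longer passed in 12 of 20 alternatives, with adjusted p-values of up to 0.353. CITED2, a coactivator that restrains the hypoxia factor HIF1, rose by 2.25 ± 0.21 (2.24 and 2.27; adjusted p = 0.0043), the single call in 33 genes of glycolysis and hypoxia. CRABP2, which carries retinoic acid to the nucleus, rose by 1.65 ± 0.21 (1.76 and 1.54; adjusted p = 0.0225), 1 of 45 genes of retinoid, aldehyde and drug metabolism.

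In the larger families no gene was called. None of 33 proteasome subunits, 60 respiratory chain and ATP synthase genes, 67 cytosolic ribosomal proteins or 45 DNA replication and nucleotide synthesis genes was called by limma, with median log2 ratios of 0.29, 0.03, -0.23 and 0.02. At an unadjusted p under 0.05 these lists held 9, 5, 14 and 2 genes, in the same order, where 12.5% of all genes had such a p. The ribosomal median was -0.09 on replicate 1 and -0.39 on replicate 2. Of 39 interferon-stimulated genes, ISG15, a ubiquitin-like modifier, read 3.41 and 1.90 (adjusted p = 0.158). ISG15 and IFITM2 passed with the replicate block, and B2M and HLA-G did so among 25 antigen presentation genes, where 0 passed without it. Clones of HLA, IFITM, histone and metallothionein genes can bind transcripts of related genes, so a value may belong to several family members.

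**Figure D3:**
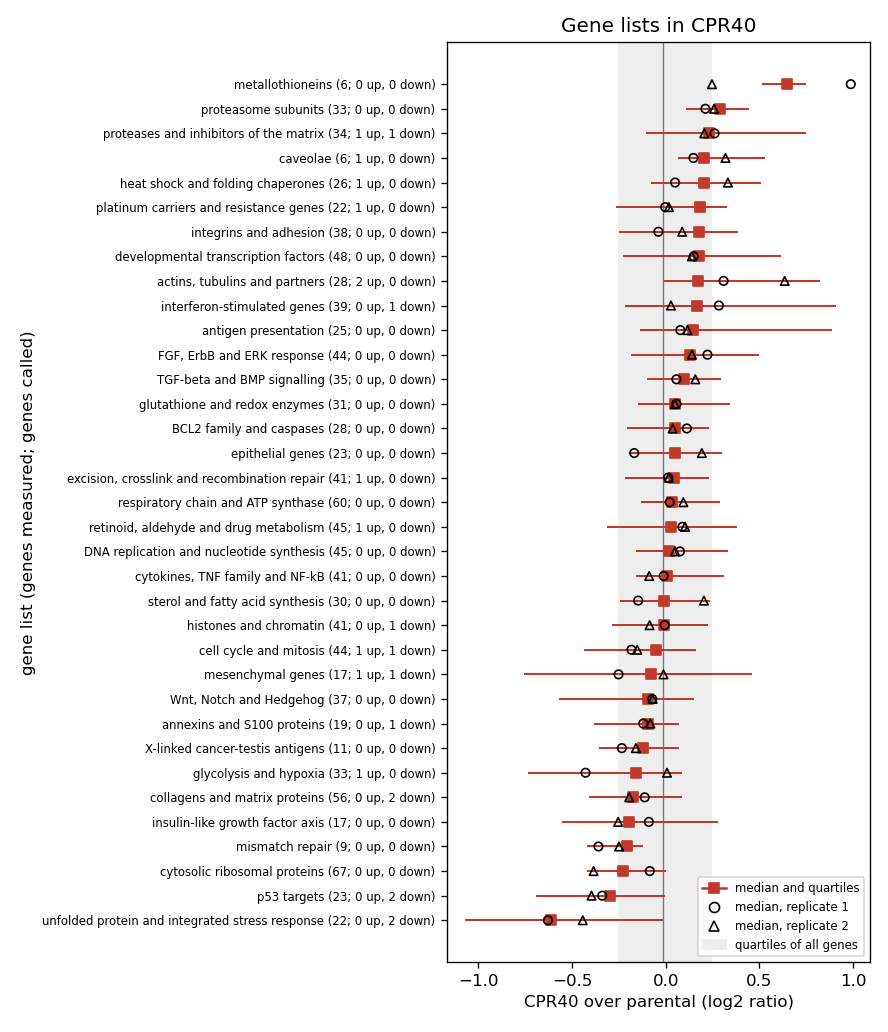
Median log2 ratio of CPR40 over the parental line for 35 gene lists (squares, with lines from the lower to the upper quartile) and the median on each replicate array (open circles and triangles). Labels give the genes measured and the genes called in each direction, and the grey band spans the quartiles of all 9837 genes. Medians run from -0.61 for the stress response genes to 0.65 for the metallothioneins. No metallothionein was above background on both CPR40 arrays in either channel.

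Another 33 genes were called that the naming rule did not pick, and those given here were chosen after their values were seen. SERPING1, the complement C1 inhibitor, fell by 1.72 ± 0.20, and the vitamin carrier SLC5A6 fell by 1.50 ± 0.19, with values of -1.50 on both arrays. The chromatin organiser SATB1 fell by 1.75. The actin crosslinker FLNC was at least 1.92-fold lower and the lysosomal lipase LIPA at least 2.70-fold lower. Among those that rose, the axon-guidance ligand SLIT2 read 2.45 and 2.00 (at least 2.47-fold), and the peptidase DPP7 2.61 and 2.20 (at least 5.10-fold). The kinase MAP2K3 rose by 1.49, the kinase MAP3K14 at least 3.03-fold and the mitochondrial carrier UCP2 at least 2.01-fold. Ezrin (EZR), which links actin to the membrane, rose by 1.32, with a second clone at 1.38 (adjusted p = 0.0682).

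The second comparison asked which of these changes the other 6 arrays lack. No probe passed when CPR40 was set against the mean of CPR20, CPR55 and CPR70. In that limma contrast 0 of 13186 probes (0%) had an adjusted p under 0.05, the smallest adjusted p was 1, and 415 probes had an unadjusted p under 0.05. With the replicate block the count was also 0, with 678 probes at an unadjusted p under 0.05. Against CPR20, CPR55 and CPR70 singly, limma called 0 probes each, with smallest adjusted p-values of 0.324, 0.511 and 0.375 and with 385, 346 and 444 probes at an unadjusted p under 0.05. So no change of CPR40 can be called particular to it from these arrays. The count against the mean was 33, all lower, without CPR40 replicate 1, and 45, with 44 lower, on the replicate 2 arrays alone.

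Those 33 probes read -4.57 to -2.51 on CPR40 replicate 2 and -0.95 to 0.95 on replicate 1. On replicate 2 their red channel was above background for 3 of the 33 and their green channel for 31. That array is the one with the most spots not found.

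The test is limited by 2 arrays a derivative. Over the 80 called probes the 95% interval of CPR40 minus the other derivatives reached a median of 0.65 on the log2 scale to either side, and it lay within 1 of 0 for 38 of them. The values stood side by side as follows, with the same parental RNA in all and with probes chosen on their CPR40 value. The 42 called higher had median log2 ratios of 2.24 in CPR40, 1.72 in CPR20, 2.07 in CPR55 and 1.63 in CPR70. The 38 called lower had medians of -1.95, -1.55, -1.58 and -2.14.

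Both CPR40 arrays lay above all other 6 for 219 of 10807 probes with 8 values (2.03%) and below them for 299 (2.77%). Over genes the counts were 169 (2.06%) above and 227 (2.77%) below, of 8199. Of the 77 called probes with 8 values, 3 lay above and 4 below. They included PTTG1 and UNG above, and SNCG, PHLDA3 and NFATC4 below. PTTG1 in CPR40 was 1.60 and 1.24 against 0.44 to 1.18 elsewhere, a difference from the mean of the others of 0.69 ± 0.24 that did not pass (unadjusted p = 0.0193, limma). PHLDA3 was -2.61 and -3.19 against -2.55 to -1.43, a difference of -0.82 ± 0.27 (unadjusted p = 0.0169), with the derivative channel below background on both CPR40 arrays and on 4 of the other 6.

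The genes with the smallest p in that contrast are given as values, since none passed. SNCG read -2.92 and -3.12 in CPR40, -1.70 and -1.58 in CPR20, -1.31 and -1.32 in CPR55, and -2.35 and -2.47 in CPR70. The difference from the mean of the other derivatives was -1.23 ± 0.22 (unadjusted p = 0.000481). The derivative channel of SNCG was below background on all 8 arrays, so its ratios rest on values not well above background, and no order of the derivatives is read from it.

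PCDH9, a protocadherin of cell adhesion, was below 0 in CPR40 and above 0 on all other 6 arrays. It read -1.20 and -1.10 in CPR40, 0.58 and 0.59 in CPR20, 0.59 and 0.85 in CPR55, and 0.48 and 1.55 in CPR70. The difference was -1.92 ± 0.31 (95% interval -2.64 to -1.21, unadjusted p = 0.000262), and both channels were above background on all 8 arrays. On CPR40 replicate 2 the derivative channel read 334 against a background level of 311.7, so that value lay near background. The CPR40 value itself did not pass against the parental line (-1.15 ± 0.27, adjusted p = 0.139). A second, dimmer clone read -0.02 and -0.33 in CPR40, with means of 0.16, 0.23 and 0.83 in CPR20, CPR55 and CPR70, a difference of -0.58 (unadjusted p = 0.03).

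TM4SF1, a tetraspanin-like membrane protein, read 0.52 and -0.02 in CPR40, 0.32 and 0.25 in CPR70, 3.79 and 2.96 in CPR20, and 3.20 and 3.17 in CPR55. CPR40 and CPR70 lay near 0 and overlapped, while CPR20 and CPR55 lay well above them. CPR40 minus CPR20 was -3.13 ± 0.36 (adjusted p = 0.324, limma) and CPR40 minus CPR55 was -2.94 ± 0.36 (adjusted p = 0.511). The CPR40 intensities were 164.8 and 676.3 in red against 202.3 and 525.7 in green, below background in both channels on replicate 1 and above it in both on replicate 2. On the other 6 arrays the parental channel was below background, at 17.1 to 185. The ratio near 0 on CPR40 replicate 2 thus rests on a parental intensity that stood apart from the same RNA elsewhere. Both CPR70 arrays were below background in both channels.

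**Figure D4:**
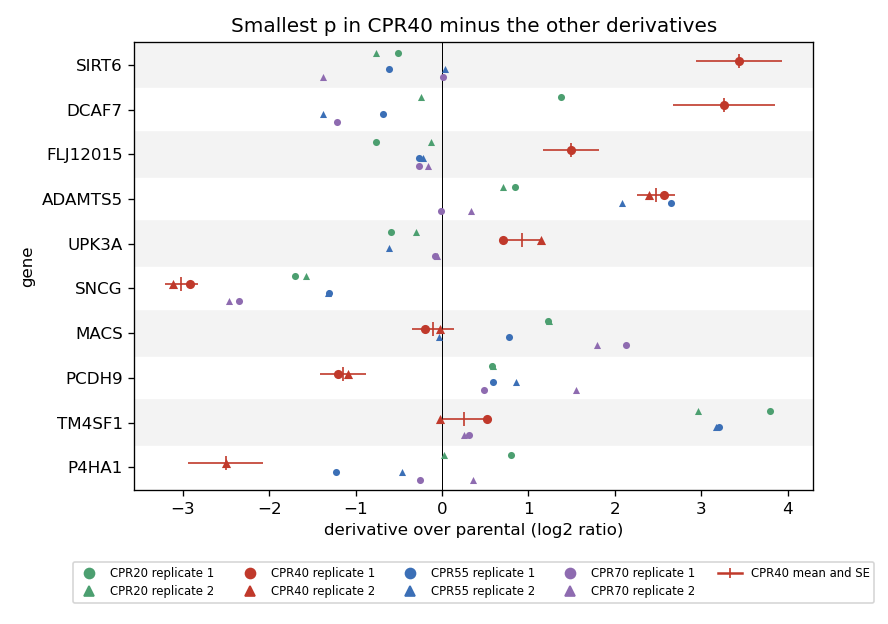
Log2 ratio of each derivative over the parental line (horizontal axis) on all 8 arrays for the 5 genes in each direction with the smallest p in CPR40 minus the mean of the other derivatives. Circles are replicate 1, triangles replicate 2, and the bar is the CPR40 mean with its SE. For PCDH9 both CPR40 arrays lie below all others, and SIRT6, DCAF7, FLJ12015 and P4HA1 have 1 CPR40 array each.

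ADAMTS5 read 2.57 and 2.39 in CPR40, 2.65 and 2.08 in CPR55, 0.85 and 0.71 in CPR20, and -0.01 and 0.33 in CPR70. CPR40 exceeded the mean of the others by 1.38 ± 0.25 (unadjusted p = 0.000646), and by 0.92 to 3.21 in the alternatives. CPR40 and CPR55 overlapped. The parental channel of ADAMTS5 was below background on all 8 arrays and the derivative channel on both CPR70 arrays, so the size of this difference rests in part on values not well above background.

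CRYAB and ACTA2 had the same order of means. CRYAB read 3.36 and 3.54 in CPR40, 3.43 and 1.39 in CPR55, 0.71 and 0.91 in CPR20, and 0.69 and -0.57 in CPR70, with CPR40 above the mean of the others by 2.36 ± 0.54 (unadjusted p = 0.00242). The parental channel of CRYAB was below background on all 8 arrays, and the derivative channel on replicate 2 of CPR20 and of CPR70. The size of its difference rests in part on values not well above background. ACTA2 read 2.86 and 4.07 in CPR40, 2.03 and 3.41 in CPR55, 1.15 and 1.90 in CPR20, and 0.95 and 1.62 in CPR70, a difference of 1.62 ± 0.48 (unadjusted p = 0.00959). The parental channel of ACTA2 was below background on replicate 2 of CPR40 and of CPR55, the arrays with its largest values. For either gene CPR40 lay above all CPR20 and CPR70 arrays and overlapped CPR55. None of these differences passed adjustment.

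Other genes with a small p rested on 1 array or on dim spots. DCAF7 and FLJ12015 had a CPR40 value on replicate 1 only, at 3.26 and 1.49, and P4HA1, a collagen prolyl hydroxylase, on replicate 2 only, at -2.51. UPK3A, a bladder uroplakin, read 0.70 and 1.14 against -0.61 to -0.06 on the other 5 arrays with a value. MACS, titled as the kinase C substrate MARCKS, was below background in both channels in CPR40. For these no statement on CPR40 is made.

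Other genes with large changes against the parental line gave these differences. HAPLN1 in CPR40 differed from the mean of the others by 0.27 ± 0.32, CAVIN2 by -0.64 ± 0.38, S100A11 by -0.38 ± 0.30 and ATP11B by 0.02 ± 0.60. The parental channel of CAVIN2 and the derivative channel of S100A11 were below background on all 8 arrays, and the derivative channel of HAPLN1 was above it on 3 of 8. For ATP11B the parental channel was above background on 1 of the 2 CPR40 arrays and on 2 of the other 6. PCOLCE differed by -0.75 ± 0.26 (-1.36 to -0.14, unadjusted p = 0.0214), with CPR20 at -3.64 and -3.46, CPR55 at -4.67 and -4.23 and CPR70 at -4.72 and -4.27. The derivative channel of PCOLCE was below background on CPR40 replicate 2 and CPR55 replicate 1, and near it on CPR40 replicate 1.

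**Figure D5:**
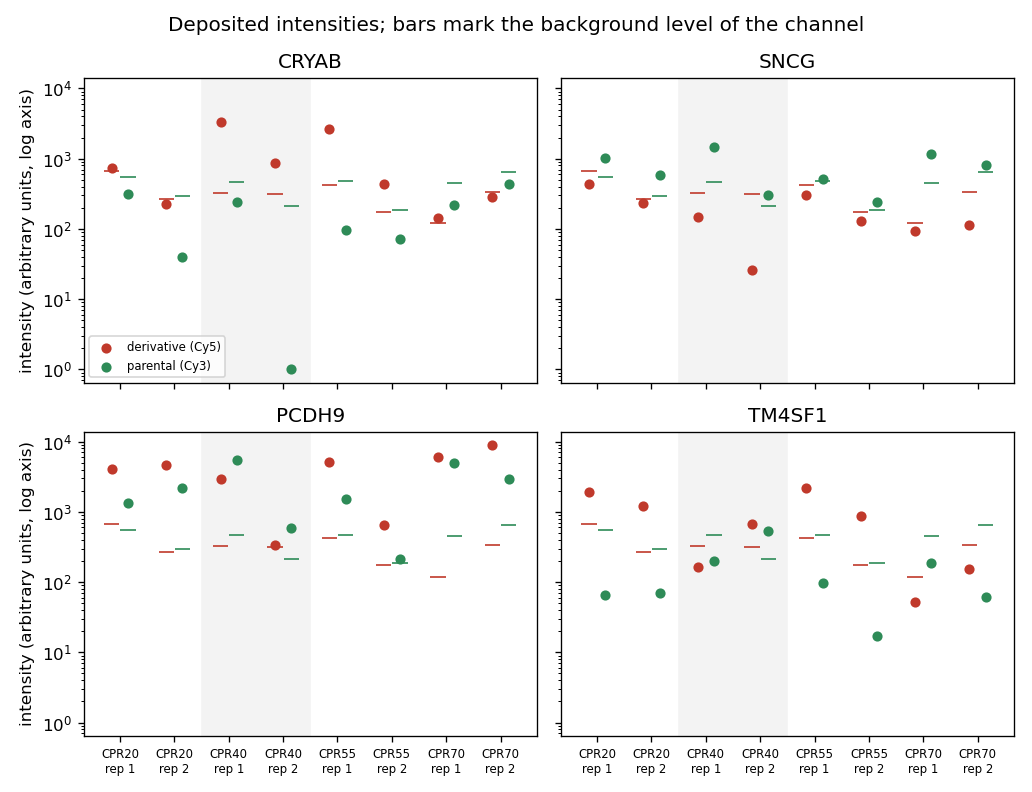
Deposited intensities of 4 genes on a log axis, with red points for the derivative channel and green points for the parental channel of each array, and short bars at the background level of that channel. CRYAB is bright in the CPR40 channel and dim in the parental channel, and SNCG the reverse. PCDH9 is above background in both channels of all 8 arrays, but near it in the derivative channel of CPR40 replicate 2. TM4SF1 in the derivative channel is above background on both arrays of CPR20 and of CPR55 and on CPR40 replicate 2.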

How the data were processed

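Total RNA was reverse transcribed with dye-bearing dUTP, per the labels' protocols, using Cy5 for derivatives and Cy3 for the parent throughout. The deposited table gives red and green intensity on a linear scale for each spot, a ratio that the authors calibrated (red over green, multiplied by 0.5533 to 1.6469 depending on the array) and a spot area, a measure other than expression, with no unit stated. The deposited series matrix holds log2 of that ratio, not centred. The scanner software is not given in the sources used here. A further 8 value columns belong to arrays that no sample describes and were not used.

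From the 15360 spots, 933 control spots and all spots with an area of 0 were left out. An offset of 50 was added, log2 ratios were loess-normalised within each array, and spots of a clone were averaged. Clones with a value in every derivative, 13186 of 13340, were called probes. All 8 arrays were fitted as 4 group means with limma 3.58.1 in R 4.3.3 (4 residual and 3.92 prior degrees of freedom), with Benjamini-Hochberg adjustment over all probes. Where a probe had 1 CPR40 value, the fit used that one. A gene was its brightest clone. Lower bounds of folds used each channel after loess and Aquantile, with the dim channel at the lowest signal above background on that array. Of 9962 symbols, 5435 were current in RefSeq (GRCh38.p14), 2179 older, 2099 unmatched and 249 ambiguous.

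Genes named are the 12 largest rises and 12 largest falls among called genes with the same sign on both CPR40 arrays. Added to these are up to 4 called members of each list, all platinum genes, and the 5 smallest p in each direction in CPR40 minus the others. Some genes picked by this rule are not reported here. Gene lists, named genes and alternatives were chosen with earlier results of these data known. Deviations of same-numbered arrays from their group means correlated at 0.23 to 0.36 in all 6 pairs of derivatives, so the replicate numbers were taken to pair the arrays. The number of arrays limits the precision.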

Additional observations from a re-analysis of the deposited data

Results flagged for a closer look

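PCDH9 lay below 0 on both CPR40 arrays and above 0 on all 6 arrays of the other derivatives, with a difference of -1.92 on the log2 scale. Its derivative channel was near background on CPR40 replicate 2. The difference was tested and did not pass adjustment (smallest adjusted p of that contrast 1). Of 10807 probes with 8 values, such opposite signs were seen for 26 with CPR40 above 0 and 34 with CPR40 below 0 (0.555% in all).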

How the results depend on the processing

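The 80 probes called in CPR40 against the parental line became 27 with median centring in place of loess, 39 with scaling between arrays, 51 with no offset, 41 with normexp, 44 with the CPR40 arrays alone, 2 with the authors' calibrated ratios, and 312 of 3097 when only probes with a channel above background on both CPR40 arrays were tested. The replicate numbers were taken to pair the arrays because same-numbered arrays deviated together in these data. With the replicate block the count was 205, and the block changed none of the counts of 0 between derivatives. Leaving out 1 array gave 29 to 88. The 80 probes kept their sign in every alternative in which they were tested. CPR40 minus the mean of the others gave 0 calls except 45 on the replicate 2 arrays alone, and 0 to 33 with 1 array left out. The same 33 were both changed and different (0 to 33). With 1 array left out, the count ranged from 0 to 16 against CPR20, 0 to 20 against CPR55 and 0 to 17 against CPR70. The highest of these came without CPR40 replicate 1. Counts above 0 also came without CPR20 replicate 1 (2, against CPR20), CPR55 replicate 2 (7, against CPR55) and CPR70 replicate 1 (14, against CPR70). A lone array was assumed to vary like the other groups. For the named genes, 157 of 1248 recomputed values no longer passed and 0 changed direction among those called. The 1248 include genes that did not pass in the main fit and so had no call to lose. All 157 belong to the called genes, where the share lost was therefore larger. Besides A2M, UNG and PTTG1, the call was lost for CD99 in 10 of 21 alternatives, NR1I3 in 9 of 18 and TWIST1 in 8 of 21. It was lost in 7 alternatives each for CRYAB, CDKN1A, ATP11B, AKNA and CRABP2. The causes were not tested. Spots near background limit the smaller changes.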
